A study of Homo sapiens with 8 samples.

Results

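Regions enriched in DNA double-strand breaks (DSBs), called BLISS+ regions, were examined near the ends of chromosomes 1, 2, 4, 6, 7, 8, 10 and 14, the 8 chromosomes with regions in every list. A region was counted as near an end when its midpoint lay within 10 Mb of the start or the end of the hg19 chromosome. The start of chromosome 14 was not counted as an end, which gave 15 chromosome ends and 150 Mb. It was counted with the rest, where its first 10 Mb held no region in any list. The 4 lists held 84, 55, 215 and 153 such regions in shNT+OHT replicates 1 and 2 and shCDK12+OHT replicates 1 and 2, of 1192, 788, 4581 and 3650 regions in all. After joining the 4 lists, 314 of 6506 merged regions lay near these ends and 3554 in the rest of the same 8 chromosomes.

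Breaks were mapped in the human osteosarcoma line U2OS carrying MycER, a Myc protein fused to the hormone-binding part of the oestrogen receptor and switched on by 4-hydroxytamoxifen (OHT). Both groups received doxycycline (1 µg/mL) to express an shRNA, OHT (300 nM, 40 h), nocodazole (100 ng/mL, 8 h) and shake-off, and were collected 18 h after release. The groups differed in the shRNA, non-targeting in shNT+OHT and against the transcription-associated kinase CDK12 in shCDK12+OHT, with 2 libraries each, and break lists cannot show whether CDK12 was lowered. The labels name 4 further libraries without OHT, which were not analysed here, and they do not say whether replicates came from separate cultures, so that p-values measure only the spread between these libraries.

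The last stretches of human chromosomes, next to the telomere repeats, are often rich in genes and in GC and contain segments duplicated between chromosomes. U2OS cells keep their telomeres by recombination between telomeres and not by telomerase. The telomere repeats themselves are not examined here, and whether reads map uniquely within the regions was not checked. Silencing of CDK12 is known to lower the expression of long genes, many of them for DNA repair.

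To ask whether breaks gathered at chromosome ends, the number of regions per Mb was compared with that in the rest of the same chromosomes (1253.1 Mb). The ends held fewer regions per Mb than the rest in each of the 4 libraries. In shNT+OHT the density was 0.560 and 0.367 regions per Mb at the ends, against 0.750 and 0.457 in the rest. In shCDK12+OHT it was 1.43 and 1.02 at the ends, against 1.86 and 1.51 in the rest. The ratio of ends to rest was thus 0.747 and 0.802 in shNT+OHT, versus 0.772 and 0.674 in shCDK12+OHT. The mean log2 ratio was -0.42 ± 0.11 (SD, n = 4), lower at the ends in 4 of 4 libraries, with an exact sign-flip permutation p-value of 0.125 (two-sided), the smallest that 4 libraries allow, and 0.438 after Benjamini-Hochberg adjustment over 7 tests. The ends made up 10.7% of the length of the 8 chromosomes and 8.20, 8.76, 8.45 and 7.47% of the regions.

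Silencing of CDK12 came with more regions at the ends. On average 69.5 ± 20.5 regions (SD, n = 2) lay there in shNT+OHT, compared with 184 ± 43.8 (SD, n = 2) after CDK12 silencing, which is 2.65-fold or 1.40 on the log2 scale. No shNT+OHT library reached either shCDK12+OHT library, at an exact permutation p-value of 0.333 (two-sided), the smallest possible with 2 against 2 libraries, and 0.467 after adjustment. The ratio of ends to rest, which removes list length, overlapped between the groups (difference of log2 ratios -0.10, exact permutation p-value 0.667, 0.778 after adjustment). Other settings separated the groups, in either direction. Among regions of at least 4 kb, the ratio of ends to rest was 0.928 and 0.955 for shNT+OHT against 0.636 and 0.654 for shCDK12+OHT, a log2 difference of -0.55. By covered length it was 0.696 and 0.772 against 0.693 and 0.677. Without chromosome 8 the ratio of ends to rest was 0.352 and 0.367 in shNT+OHT, versus 0.664 and 0.607 in shCDK12+OHT, a log2 difference of 0.82 in the opposite direction. Within 5 Mb of the ends it was 0.371 and 0.463 in shNT+OHT, versus 0.846 and 0.636 in shCDK12+OHT, a log2 difference of 0.82. For each of these 4 alternatives the exact permutation p-value was 0.333.

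**Figure D1:**
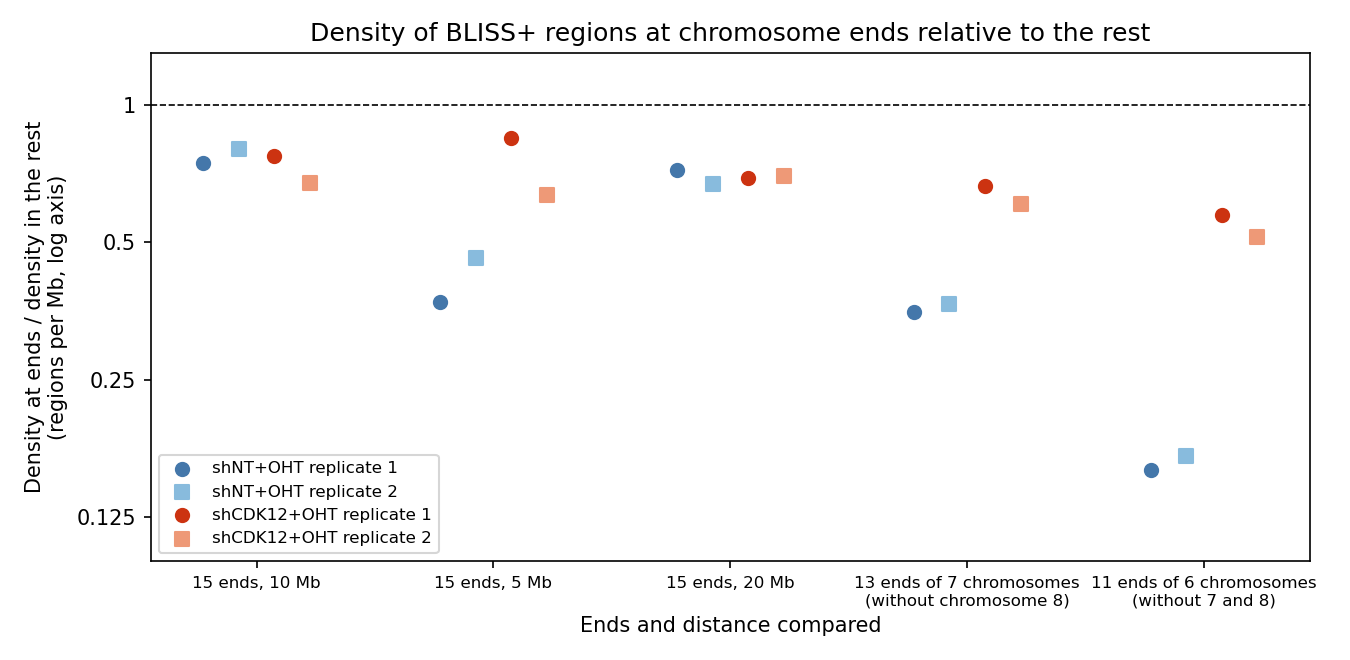
Regions per Mb at chromosome ends divided by regions per Mb in the rest of the same chromosomes (log axis) for each of the 4 libraries, at 3 distances and with chromosomes left out; the dashed line marks equal density. All points lie below 1, the libraries mix for 15 ends at 10 Mb, and both shNT+OHT points lie below both shCDK12+OHT points at 5 Mb and when chromosome 8, or 7 and 8, are left out.

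The ends were unequal, and the inequality was greater in shNT+OHT. Both shNT+OHT libraries had most of their end regions on the short arm of chromosome 7 (7p) and the long arm of chromosome 8 (8q). These ends were singled out after their values were seen, so that they are described without a test. Copy number was not measured here, and its part in the density of these ends was not tested. Together they held 75 of 84 regions (89.3%, 95% Wilson interval 80.9 to 94.3) in shNT+OHT replicate 1 and 49 of 55 (89.1%, 78.2 to 94.9) in replicate 2. In shCDK12+OHT they held 98 of 215 (45.6%, 39.1 to 52.3) and 69 of 153 (45.1%, 37.4 to 53.0). In the rest of the chromosomes, 45.9 and 44.7% of the shNT+OHT regions and 23.5 and 24.4% of the shCDK12+OHT regions lay on chromosomes 7 and 8, so the same direction was seen away from the ends.

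The other 13 ends held 9 and 6 regions in shNT+OHT, versus 117 and 84 in shCDK12+OHT, on average 7.50 ± 2.12 and 100.5 ± 23.3 (SD, n = 2), a 13.4-fold difference. This fold depends on setting apart the ends with most shNT+OHT regions, which leaves small numbers for that group. The rest of the 8 chromosomes held 940 and 573 regions in shNT+OHT, versus 2328 and 1896 in shCDK12+OHT. At 7p and 8q the average was 62.0 ± 18.4 in shNT+OHT and 83.5 ± 20.5 in shCDK12+OHT, which is 1.35-fold. As the depth of the libraries is unknown, a fold in numbers also carries any difference in library yield. Without chromosomes 7 and 8 altogether, the ratio of ends to rest was 0.16 and 0.17 in shNT+OHT, versus 0.575 and 0.514 in shCDK12+OHT. Of the 15 ends, 7 and 8 held a region in the shNT+OHT lists, and 15 and 14 in the shCDK12+OHT lists. These are 46.7 and 53.3% of the ends for shNT+OHT, compared with 100 and 93.3% for shCDK12+OHT. Of 126 windows of about 10 Mb away from the ends, 77.8 and 65.9% were occupied in the shNT+OHT lists and 96.8% in each shCDK12+OHT list.

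Taken end by end, both shCDK12+OHT libraries lay above both shNT+OHT libraries at 13 of 15 ends. Over all 141 windows of the 8 chromosomes, ends included, this was so for 82.3%, and in 0.709% of windows both shCDK12+OHT libraries lay below. The share at the ends was therefore near that of the chromosomes as a whole. The exceptions were 8q, with 57 and 38 regions in shNT+OHT, versus 62 and 39 in shCDK12+OHT, and 7q, with a single region in shCDK12+OHT replicate 1. At 7p the counts were 18 and 11 in shNT+OHT, versus 36 and 30 in shCDK12+OHT, a 2.28-fold difference of means without overlap.

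**Figure D2:**
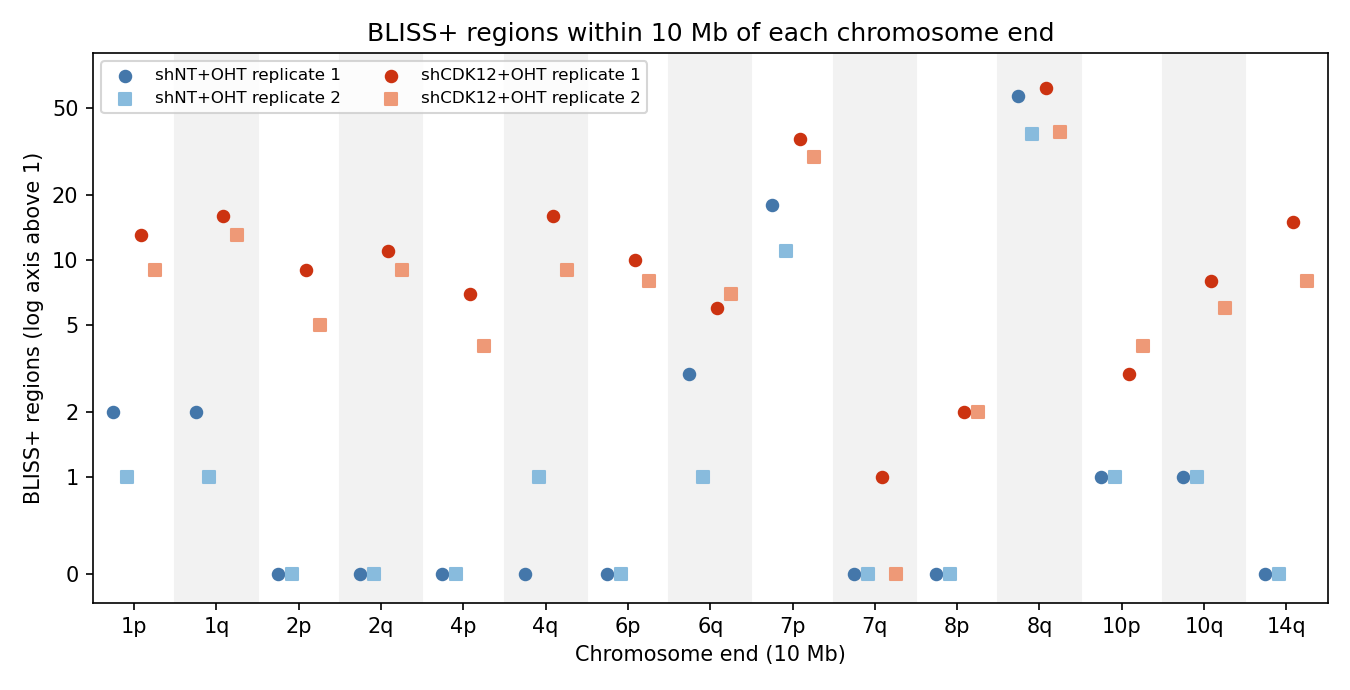
Number of BLISS+ regions (vertical axis, logarithmic above 1) within 10 Mb of each of 15 chromosome ends, named by chromosome and arm, with 1 point per library. At 8q the groups overlap (57 and 38 against 62 and 39 regions), at 7q they hold 0, 0, 1 and 0, and at the other 13 ends both shCDK12+OHT libraries lie above both shNT+OHT libraries.

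At 7 ends no region was listed in either shNT+OHT library. These were 2p, 2q, 4p, 6p, 7q, 8p and 14q, and they held 55 and 36 regions in the shCDK12+OHT lists. The end of 14q held 15 and 8 of them, that of 2q 11 and 9, that of 6p 10 and 8, that of 2p 9 and 5, and that of 4p 7 and 4. The end of 8p, on the same chromosome as the dense 8q end, held 2 regions in each shCDK12+OHT list. No ratio can be formed for these ends, where the shNT+OHT lists have no bin over the threshold used to make them.

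At the remaining 6 ends the shNT+OHT lists held at most 3 regions. The end of 1q held 2 and 1 in shNT+OHT, versus 16 and 13 in shCDK12+OHT. The end of 1p held 2 and 1 against 13 and 9. The end of 4q held 0 and 1 against 16 and 9, and that of 6q 3 and 1 against 6 and 7. On chromosome 10 the short-arm end held 1 and 1 against 3 and 4, and the long-arm end 1 and 1 against 8 and 6. In the order of shCDK12+OHT means, 8q (50.5 ± 16.3, SD, n = 2) and 7p (33.0 ± 4.24) stood above 1q (14.5 ± 2.12). The libraries of 8q and 7p lay apart by only 3 regions (39 against 36), and those of 1q, 4q, 14q, 1p and 2q overlapped from each to the next. In shNT+OHT, 8q (47.5 ± 13.4) and 7p (14.5 ± 4.95) did not overlap with each other or with any other end.

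Set against their own chromosome, 7p and 8q were the 2 ends denser than the rest in all 4 libraries. The end of 8q was 2.61- and 2.81-fold as dense as the rest of chromosome 8 in shNT+OHT, versus 2.19- and 1.66-fold in shCDK12+OHT. The end of 7p was 1.62- and 1.80-fold as dense as the rest of chromosome 7 in shNT+OHT, versus 2.64- and 2.50-fold in shCDK12+OHT. Relative to its chromosome, 8q was thus denser in shNT+OHT, and 7p was denser in shCDK12+OHT, with no overlap between groups at either end. The direction of 7p was the common one. It was also found without overlap at 1q, 2p, 2q, 4p, 4q, 6p, 8p, 10q and 14q, at most of which shNT+OHT listed no region. Only 8q went the other way without overlap. At 13 ends both shNT+OHT libraries lay below the density of their own chromosome, and at 12 ends both shCDK12+OHT libraries did. The end of 4q, at 1.27 and 0.741 in shCDK12+OHT, fell on both sides. Among all 141 windows, 8q ranked 4 by mean density in shNT+OHT, versus 5 in shCDK12+OHT, each in a tie with another window, and 7p ranked 13 and 11. The density of 8q was not particular to its last 10 Mb (5.7 and 3.8 per Mb in shNT+OHT, 6.2 and 3.9 in shCDK12+OHT). It was 6.1 and 3.5 against 3.9 and 4.0 at 10 to 20 Mb, and 6.3 and 3.8 against 6.9 and 5.1 at 20 to 30 Mb. On 7p it was 0.4 and 0.1 against 0.8 and 0.9 at 10 to 20 Mb.

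Although 8q held similar numbers in both groups, the regions were placed differently along it. Between 5 and 10 Mb from the end, shNT+OHT replicates 1 and 2 listed 47 and 28 regions, and shCDK12+OHT replicates 17 and 16. In the last 5 Mb, shNT+OHT listed 10 and 10 and shCDK12+OHT 45 and 23. The inner part thus held 82.5 and 73.7% of the 8q end regions in shNT+OHT, versus 27.4 and 41.0% in shCDK12+OHT, and the groups did not overlap in either part. The densest stretch of shNT+OHT lay 7 to 10 Mb from the end, with 40 and 21 regions (13.3 and 7.0 per Mb) against 13 and 10 in shCDK12+OHT (4.33 and 3.33 per Mb). In shCDK12+OHT replicate 1 the peak lay 4 to 5 Mb from the end, with 18 regions against 6 in its replicate and 3 and 3 in shNT+OHT. The densest stretch and this peak were picked after their values were seen, so the contrast between groups there is described without a test. Further in, 10 to 20 Mb from the end, shNT+OHT listed 61 and 35 regions and shCDK12+OHT 39 and 40.

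**Figure D3:**
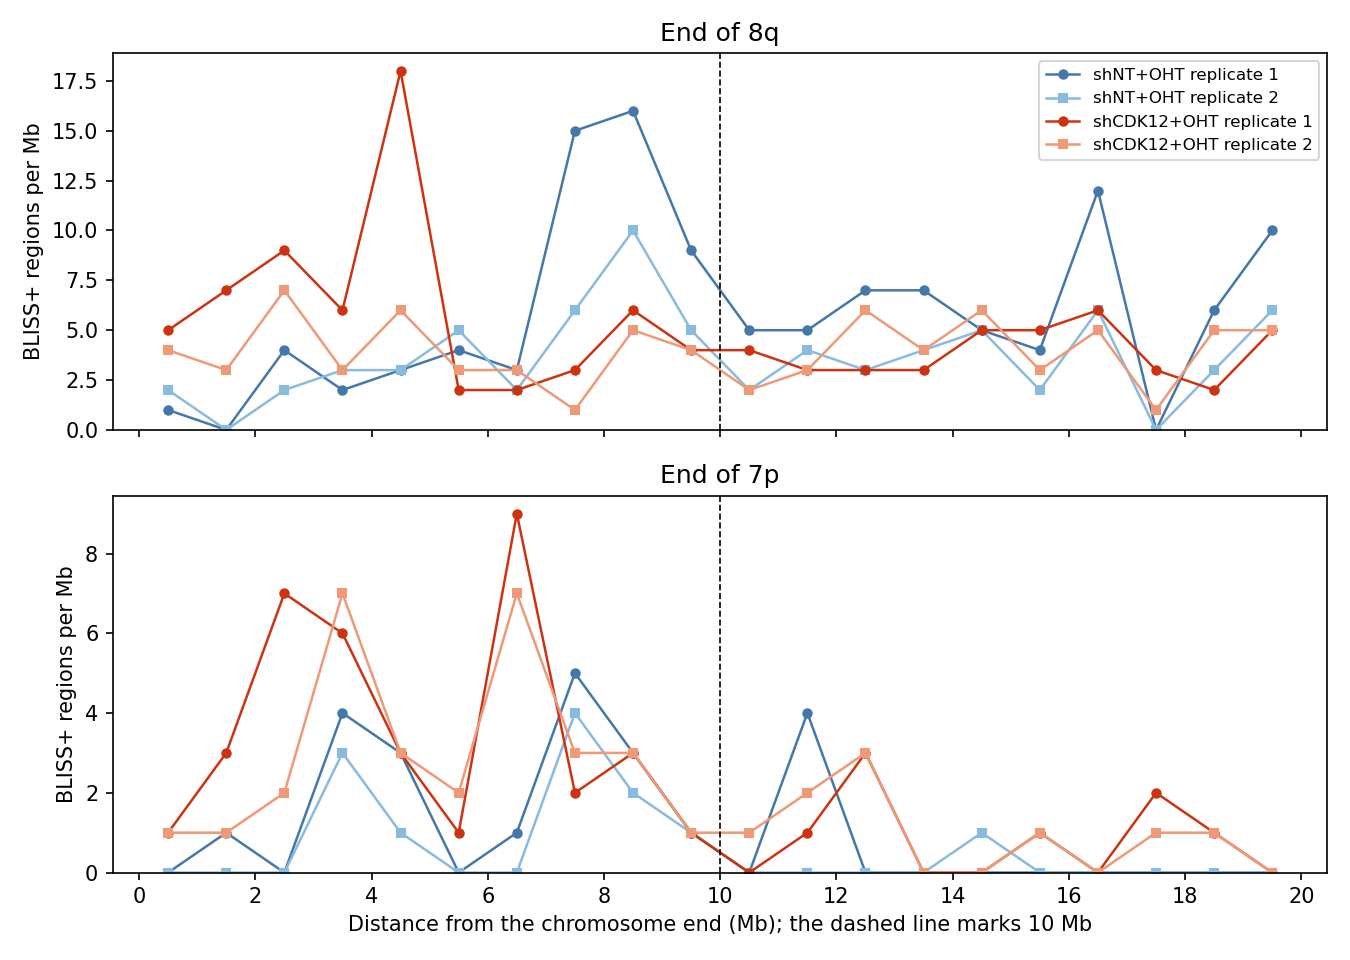
BLISS+ regions per Mb (vertical axis) against distance from the chromosome end in steps of 1 Mb (horizontal axis) for 8q (top) and 7p (bottom), with 1 line per library; the dashed line marks the 10 Mb limit. At 8q both shNT+OHT lines peak 8 to 9 Mb from the end (16 and 10 regions) and both shCDK12+OHT lines lie above them in the last 3 Mb. At 7p the shCDK12+OHT lines reach 9 and 7 regions 6 to 7 Mb from the end, where shNT+OHT listed 1 and 0. The steps named here were picked after their values were seen.

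At 7p the counts for 0 to 5 Mb were 8 and 4 in shNT+OHT, versus 20 and 14 in shCDK12+OHT, and for 5 to 10 Mb they were 10 and 7 against 16 and 16. Between 7 and 10 Mb the groups overlapped, with 9 and 7 against 6 and 7. The step from 6 to 7 Mb, picked after its values were seen, held 1 and 0 regions in shNT+OHT, versus 9 and 7 in shCDK12+OHT. The next step, from 7 to 8 Mb, went the other way, with 5 and 4 against 2 and 3. At the 13 other ends the shCDK12+OHT regions were spread over the whole 10 Mb. Their density was 0.785 and 0.523 per Mb in the last 5 Mb and 1.02 and 0.769 per Mb between 5 and 10 Mb. It was 1.08 and 0.962 per Mb between 10 and 20 Mb and 2.04 and 1.58 per Mb between 20 and 30 Mb. In shNT+OHT the same steps gave 0.0462 and 0.0308, 0.0923 and 0.0615, 0.146 and 0.0462, and 0.777 and 0.477 per Mb. Summed over these 13 ends, each library thus had its lowest density in the last 5 Mb and its highest between 20 and 30 Mb. Most shNT+OHT regions of the 20 to 30 Mb step lay on 8p, which was picked after its values were seen. There the density was 8.2 and 5.5 per Mb in shNT+OHT, versus 8.3 and 6 in shCDK12+OHT. The highest step of shNT+OHT therefore describes mainly 8p and not these ends in general.

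The region nearest to the end lay within 1 Mb at 7 of 15 ends. The outermost of all was a 2 kb region on 1q (chr1:249198001-249200000) at 0.0510 Mb from the end, listed in shCDK12+OHT replicate 2 alone. On 8q the outermost region (chr8:146226001-146228000, 0.133 Mb) was again listed in that library alone, and a region chosen after its values were seen (chr8:146124001-146126000, 0.235 Mb) in all 4 libraries. On 2q a region at 0.209 Mb (chr2:242990001-242992000) was listed in both shCDK12+OHT libraries, and on 4q a region at 0.307 Mb (chr4:190842001-190844000) in shNT+OHT replicate 2 alone. On 10p the outermost region lay 5.46 Mb inside and on 2p 3.52 Mb. The 10 Mb limit passed through a dense stretch of 8q, where the last merged region inside lay at 9.94 Mb and the first outside at 10.1 Mb. On 2p the corresponding distances were 9.99 and 10.03 Mb, and on 4p they were 7.94 and 15.0 Mb.

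To ask whether regions near the ends were shared between groups to the same extent as elsewhere, the share of regions touching the other group by at least 1 bp was computed per library. In shNT+OHT, 37 of 84 (44.0%, 95% Wilson interval 33.9 to 54.7) and 29 of 55 (52.7%, 39.8 to 65.3) end regions touched a shCDK12+OHT region, against 40.7 and 48.5% in the rest. In shCDK12+OHT, 38 of 215 (17.7%, 13.2 to 23.3) and 39 of 153 (25.5%, 19.2 to 32.9) touched a shNT+OHT region, against 16.5 and 20.1% in the rest. The share was higher at the ends in 4 of 4 libraries, by 3.51 percentage points on average, at an exact sign-flip permutation p-value of 0.125, the smallest possible (0.438 after adjustment). This did not hold everywhere. At the 13 ends without 7p and 8q, 6 of 117 (5.13%) and 7 of 84 (8.33%) shCDK12+OHT regions touched a shNT+OHT region, below the rest in both libraries. Only 9 and 6 shNT+OHT regions lay there to be touched. Of these, 7 (77.8%) and 4 (66.7%) touched a shCDK12+OHT region, above the rest, and the mean difference over 4 libraries was 8.00 points. Without chromosome 8 the shares of shCDK12+OHT were 8.61 and 15.2% at the ends and 13.1 and 16.9% in the rest. Those of shNT+OHT were 63.0 and 41.2% at the ends and 38.6 and 44.0% in the rest. Among regions of at least 4 kb the mean difference was -6.11 points, and within 5 Mb of the ends it was 17.7 points, higher in 3 of 4 libraries. The share touching the own replicate was 27.4 and 41.8% at the ends and 23.5 and 40.5% in the rest of shNT+OHT. In shCDK12+OHT it was 50.7 and 71.2% at the ends and 57.6 and 71.7% in the rest. The mean difference was -0.559 percentage points (exact sign-flip permutation p-value 0.875 before and after adjustment). Among regions of at least 4 kb it was -11.3 points, lower at the ends in 4 of 4 libraries (exact sign-flip permutation p-value 0.125, unadjusted). Each overlap is counted from both sides. At the ends, 23 regions of each shNT+OHT list and 109 of each shCDK12+OHT list touched the own replicate. The libraries are thus not independent in these shares, nor in those between groups, whereas the sign-flip tests treat them as independent.

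Of the 314 merged regions near ends, 204 (65.0%, 95% Wilson interval 59.5 to 70.0) were listed in shCDK12+OHT only, 60 (19.1%, 15.1 to 23.8) in shNT+OHT only and 50 (15.9%, 12.3 to 20.4) in both. In the rest the shares were 65.1, 20.8 and 14.1%, each within 2 percentage points of the ends. At the 13 ends other than 7p and 8q, 126 of 137 merged regions (92.0%) were listed in shCDK12+OHT only, 4 in shNT+OHT only and 7 in both. This share depends on setting apart, after their values were seen, the ends with 89.3 and 89.1% of the shNT+OHT end regions. The rest still included chromosomes 7 and 8. At 7p the classes held 37, 14 and 10 of 61 regions, and at 8q 41, 42 and 33 of 116. Along 8q, the last 5 Mb held 33 regions of shCDK12+OHT only and 1 of shNT+OHT only among 48. Between 5 and 10 Mb these numbers were 8 and 41 among 68.

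**Figure D4:**
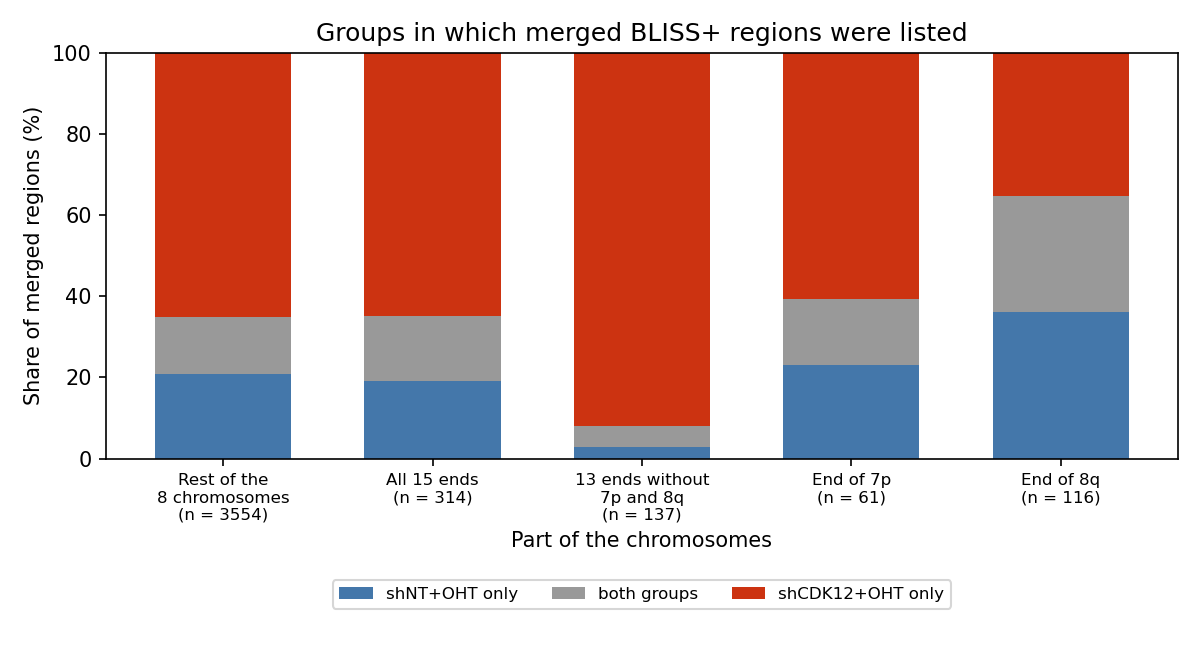
Share of merged BLISS+ regions (vertical axis, percent) listed in shNT+OHT only, in both groups or in shCDK12+OHT only, for the rest of the 8 chromosomes, all 15 ends, 13 ends without 7p and 8q, and the ends of 7p and 8q, with the number of merged regions under each bar. The bars of the rest and of all ends are alike (65.1 and 65.0% in shCDK12+OHT only), whereas that class takes 92.0% at the 13 ends and 35.3% at 8q. The ends of 7p and 8q were set apart after their values were seen, and the rest includes chromosomes 7 and 8.

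Presence in both libraries of a group narrowed these classes. Both shCDK12+OHT libraries and no shNT+OHT library listed 84 of the 314 end regions (26.8%), against 30.02% in the rest. Of these, 62 lay at the 13 ends, 12 at 7p and 10 at 8q. The 3 longest, each 8 kb and 3 of 8 regions of that width, lay on chromosome 1. They were chr1:8082001-8090000, with 8 and 2 kb in the shCDK12+OHT replicates, chr1:243414001-243422000, with 6 and 8 kb, and chr1:244208001-244216000, with 8 kb in each. Both shNT+OHT libraries and no shCDK12+OHT library listed 9 end regions (2.87%, against 1.55% in the rest), of which 7 lay on 8q and 2 on 7p. The longest was 6 kb (chr8:140790001-140796000), with 2 and 4 kb in the shNT+OHT replicates. Of 3 regions of 4 kb, the first by chromosome and start were chr7:7324001-7328000 and chr8:137794001-137798000. None lay at the other 13 ends. There the 4 regions of shNT+OHT only were single 2 kb bins of 1 library each, on 4q, 6q and 10p, the last with 2.

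All 4 libraries listed 14 end regions, 9 on 8q, 2 on 7p and 1 each on 1p, 6q and 10q. The longest was a 14 kb region on 10q (chr10:127574001-127588000), with 10 and 6 kb in shNT+OHT and 10 kb in each shCDK12+OHT list. On 1p an 8 kb region (chr1:564001-572000) was listed with the same borders in all 4 libraries. It is the outermost region of this end, and in hg19 it covers a known nuclear copy of mitochondrial DNA. On 6q an 8 kb region (chr6:163832001-163840000) had 4 and 2 kb in shNT+OHT and 8 kb in each shCDK12+OHT list. The 2 regions on 7p, named after their values were seen, were chr7:4896001-4900000 and chr7:8006001-8014000, the latter with 4 kb in each shNT+OHT list and 8 kb in each shCDK12+OHT list. The 14 regions had a mean width of 6.0 kb, against 2.17 kb for the 120 end regions of a single shCDK12+OHT library. These widths are those of merged regions, which grow with the number of lists that overlap.

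Finally, the width of the regions was compared. Near the ends, shNT+OHT regions averaged 2.55 and 2.47 kb and shCDK12+OHT regions 3.02 and 3.07 kb. The group means were 2.51 ± 0.0530 and 3.05 ± 0.0344 kb (SD, n = 2), a difference of 0.537 kb that went the same way for every pair of libraries (exact permutation p-value 0.333, 0.467 after adjustment). Without 7p and 8q the difference was -0.668 kb, where the shNT+OHT lists held only 9 and 6 regions. Single 2 kb bins made up 83.3 and 85.5% of the end regions in shNT+OHT, versus 73.5 and 73.9% in shCDK12+OHT. In the rest they made up 86.6 and 87.8% against 67.8 and 73.0%, so the same direction was seen away from the ends. No region near an end was longer than 10 kb in any list, whereas the rest held regions of up to 50, 48, 52 and 48 kb. The rest is a much larger set, and a maximum grows with the number of regions. In the rest of chromosome 7, too, no region was longer than 10 kb in any list. In the rest, the shNT+OHT lists averaged 2.73 and 2.57 kb and the shCDK12+OHT lists 3.37 and 3.06 kb. Ends minus rest came to -0.153 kb on average, narrower at the ends in 3 of 4 libraries (exact sign-flip permutation p-value 0.25, 0.467 after adjustment), to -0.951 kb among regions of at least 4 kb, and to 0.00135 kb when 5 Mb on either side of the centromere was left out of the rest.

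Neighbouring regions lay closer at 8q than at 7p in 3 of 4 libraries. At 8q their median gap was 68.0 and 156 kb in shNT+OHT, versus 94.0 and 215 kb in shCDK12+OHT. At 7p it was 230 and 185 kb against 190 and 212 kb. At the 13 other ends it was 297 and 512 kb in shCDK12+OHT, while shNT+OHT had too few regions there for a comparison, with 4 gaps in replicate 1 and none in replicate 2.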

How the data were processed

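Breaks were mapped by sBLISS, in which break ends are ligated to an adapter with a unique molecular identifier (UMI). The deposited files hold coordinates (unit: other), 1 list per library, without a count or score, so the depth is unknown. Build hg19 is given in the submitters' processing notes. The study that reused the shNT+OHT lists describes removal of UMI duplicates, 2 kb bins, a fixed UMI threshold and merging of bins. The threshold and any down-sampling used for these lists are not given in the sources used here. A fixed threshold ties the number of regions to library yield, and densities are not corrected for copy number.

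Every border lay on a multiple of 2000 bp. Density was regions per Mb of hg19 length. Overlap meant at least 1 bp shared. Lists were merged where regions touched. The groups were compared by exact permutation over the 6 relabellings of 4 libraries, ends and rest by exact sign flips over 4 libraries, both two-sided, with Benjamini-Hochberg adjustment over 7 tests (Python 3.11.15, SciPy 1.17.1). For the count of ends without overlap, the rest was cut into 10 Mb windows (at least 5 Mb). Wilson 95% intervals cover counting error alone and treat neighbours as independent. Density and overlap were tested on simulated data. Named regions were the 3 longest merged regions present in all 4 libraries, in both libraries of 1 group only, the outermost of each end and those beside the 10 Mb limit. The ends, lists and tests were chosen with earlier results of these data known. Coordinates count from 1. No hg19 sequence or annotation was used here, so neither sequences nor genes are given. Alternatives were 5 and 20 Mb limits, regions of at least 4 kb, merging across 10 kb, covered length, a rest without 5 Mb around centromeres, expectation per chromosome, sharing within 10 kb, libraries or chromosomes left out and a replicate block. Leaving out 7p and 8q, or chromosomes 7 and 8, was added after the data had been seen.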

Additional observations from a re-analysis of the deposited data

Results flagged for a closer look

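In 2 of 36 patterns examined, both shNT+OHT libraries went one way and both shCDK12+OHT libraries the other, and neither difference was tested by itself. At the end of 8q, the number of regions 5 to 10 Mb from the end minus that in the last 5 Mb was 37 and 18 in shNT+OHT, versus -28 and -7 in shCDK12+OHT, a difference of means of -45.0 regions. The share of regions touched by the own replicate, at the ends minus the rest, was 3.87 and 1.33 percentage points in shNT+OHT, versus -6.95 and -0.488 in shCDK12+OHT, a difference of means of -6.32. Within a group, both values rest on the same overlaps and are not independent.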

How the results depend on the processing

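Of 101 alternative values for 8 results, 79 kept the direction or size, 21 changed direction and 1 count moved. The exact tests cannot pass 0.05, so only direction was assessed, and the cause of the changes was not tested. The difference in numbers (log2 1.13 to 1.74 on leaving out single libraries, 1.42 to 3.74 otherwise) and the lower density at the ends (-0.45 to -0.37, and -2.25 to -0.35) kept their direction under every alternative run. The group difference in the end-to-rest ratio (-0.10) became 0.82 at 5 Mb, 0.82 without chromosome 8, 0.0239 with expectation per chromosome, 2.24 without 7p and 8q and 1.73 without chromosomes 7 and 8, whereas it was -0.55 for regions of at least 4 kb. It ranged from -0.20 to -0.0041 on leaving out single libraries. Ends minus rest in width became 0.00135 kb with a rest without centromeres, 0.130 kb without chromosome 8, 0.679 kb without 7p and 8q and 0.613 kb without chromosomes 7 and 8, and was -0.951 kb for regions of at least 4 kb, -0.648 kb with merging across 10 kb, -0.336 kb at 5 Mb and -0.302 kb at 20 Mb (single libraries left out: -0.208 to -0.0896 kb). The group difference in width became -0.668 and -0.635 kb under the last pair (0.50 to 0.575 kb). Ends minus rest in sharing with the other group became -6.11 points for regions of at least 4 kb, and was 17.7 at 5 Mb, 8.00 without 7p and 8q, 8.88 without chromosomes 7 and 8 and 1.61 for sharing within 10 kb (single libraries left out: 1.73 to 3.79, lowest without shNT+OHT replicate 2). In sharing with the own replicate it was -11.3 for regions of at least 4 kb and became 2.79 at 5 Mb, 0.602 with merging across 10 kb, 0.197 without centromeres, 2.77 without chromosome 8, 2.72 for sharing within 10 kb, 5.72 without 7p and 8q, 7.35 without chromosomes 7 and 8, and -3.72 to 2.60 on leaving out single libraries, positive without either shCDK12+OHT library. The groups did not overlap at 8 ends for regions of at least 4 kb, and at 13 to 15 on leaving out single libraries. Across windows, same-numbered replicates did not deviate together (correlation -0.0314 over 141 windows), although replicate 1 had the longer list in both groups. No pairing was assumed in the main comparison, because the sources used here do not pair the replicates. With the replicate block, differences between same-numbered replicates were averaged. The log2 ratio was then 1.42, the end-to-rest difference -0.10 and the width difference 0.537 kb. For the end-to-rest ratio and the width, this average equals the unpaired difference, so their direction could not change. Unknown depth limits every comparison of numbers.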
